A study of Ovis aries with 12 samples.

Results

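The miR-378 family was represented by 94 of the 3091 probes tested on a custom single-colour miRNA array, and these probes were chosen by name alone, as every probe named miR-378 with or without a letter or arm suffix. Of the 94 probes, 5 carried the sequence of a listed miRNA unaltered and 89 carried sequence variants of one, with names from 9 species and 9 letters besides the plain name. The array had been hybridised with total RNA of the left ventricle of 12 untreated Merino sheep of normal development. There were 3 animals each of F91 (fetuses of 91 days of gestation), F140 (fetuses whose labels give 141 days), P5 (lambs 5 days old) and P173 (lambs 173 days old). The animal of F91 replicate 3 was male and all others were female. All P5 lambs and the fetus of F140 replicate 2 were twins and all others were singletons, so twinning and P5 cannot be told apart, and whether P5 replicates 1 and 2, whose array names differ only in the last letter, were litter mates was not stated. RNA came from whole ventricle, in which fewer cells of a type and less RNA per cell cannot be told apart.

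miRNA are short RNA that pair with messenger RNA, mainly through their seed (bases 2 to 8), and lower the stability and translation of those messages. In mouse and human, miR-378 is cut from an intron of PPARGC1B, the gene of a transcriptional coactivator of mitochondrial and fatty acid metabolism, and the miRNA is abundant in heart, skeletal muscle and fat. In cultured rodent cardiomyocytes, known targets of miR-378 include IGF1R, a growth factor receptor. The strand called miR-378a-5p is the opposite arm of the same precursor and has a different seed. The files name no genome build, so no position in the sheep genome is given.

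The sequences that the probes were designed to detect are shown for the unaltered entries, 5′ to 3′, with the seed in capitals. They show that miR-378 and miR-378c have the same seed and that the opposite arm has another.
bta-miR-378: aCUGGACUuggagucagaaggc
bta-miR-378c: aCUGGACUuggagucagaagu
hsa-miR-378a-5p: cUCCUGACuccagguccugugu

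Probe names gave bases removed or added at the left (L) or right (R) end and substitutions (ss) relative to the parent entry. Examples of variants that carried the results are shown with capitals for each base that differed from, or lay outside, the bta-miR-378 sequence, counted from 1 at its 5′ end. The first 3 had the smallest fitted changes between P5 and F91 among probes reaching 100 units, the next 2 passed the test between these ages, and the last, with A12G and 1 added base, stands for substitutions in the middle of the sequence.
bta-miR-378_R+1_1ss21GA: acuggacuuggagucagaagAcU
hsa-miR-378c_R-3_2ss1AC22GT: CcuggacuuggagucagaagAU
bta-miR-378_L-1R+3: cuggacuuggagucagaaggcUGG
bta-miR-378b_R+5_1ss4TG: acuggacuuggagucagaaggcUGAGU
hsa-miR-378i_3ss9AT18AC21GA: acuggacuuggagucagCagA
bta-miR-378_R+1_1ss12AG: acuggacuuggGgucagaaggcU

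Targets of the 94 probes were 17 to 27 bases long, and 54 of them held the bta-miR-378 seed at bases 2 to 8. Of the 93 probes on the miR-378 strand, 30 had no substitution within bases 1 to 19 of bta-miR-378, so that they differed only in length or in the last bases. A further 61 had a substitution within bases 1 to 19, in 48 cases only 1, and 2 lacked an internal base. Since most of these targets differ from each other by few bases, several probes may bind the same RNA, and the 94 probes were not taken as independent measurements or as separate miRNA. Sequences of probes named miR-378d are not shown.

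Signal was detected for almost the whole family. Values are normalised array signals in arbitrary units, and 32 units was taken as the upper bound of background. On each array, 82 to 92 of the 94 probes read 32 units or more, 87 had a mean of at least 100 units, and 2, hsa-miR-378f_R+1_1ss16AT and hsa-miR-378c_R-4_2ss16AT17GC, stayed under 32 units on all 12 arrays. One further probe, hsa-miR-378g_R+3, read under 32 units on all 3 arrays at F91, where its measured mean was 5.0 units. Its mean at P5 was 40.0 units, with 2 of 3 arrays at 32 units or more. With F91 set at the bound of 32 units, P5 was at least 1.25-fold F91.

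The unaltered miR-378 probe was highest at P5 after normalisation. bta-miR-378 read 2898, 3382 and 4704 units at F91, 3917, 3576 and 4148 units at F140, 5180, 5581 and 4974 units at P5, and 3533, 3431 and 4557 units at P173. In these normalised values the 3 P5 arrays lay above each of the 9 arrays of the other ages. On the scanner they did not. There the means of its spots were 6613, 5811 and 4392 units at P5 and 7059, 2486 and 6637 units at P173. They were 6642, 5555 and 3881 units at F140 and 2897, 2106 and 1500 units at F91. Normalised means in rising order were 3661 ± 935 units at F91, 3840 ± 623 units at P173, 3880 ± 288 units at F140 and 5245 ± 309 units at P5 (SD, n = 3 each). The normalised values of F91, P173 and F140 overlapped.

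The differences of bta-miR-378 between ages did not pass the test. P5 exceeded F91 by 0.55 ± 0.24 on the log2 scale (SE, 1.46-fold, limma adjusted p = 0.33) and exceeded F140 by 0.44 ± 0.24 (limma adjusted p = 0.49), and P173 was lower than P5, with a log2 change of -0.46 ± 0.24 (limma adjusted p = 0.52). The log2 change of P173 against F91 was 0.09 ± 0.24 (limma adjusted p = 0.92), and it was -0.067 without F91 replicate 1 and -0.043 without P173 replicate 3, so its direction changed when 1 array was left out. Scanner signals of the 3 spots of this probe, which are not background corrected, ranged between 2222 and 5660 units on P5 replicate 3, the widest relative range of any array, with a coefficient of variation of 43.0%.

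The other unaltered probes given here also had higher fitted means at P5 than at F91. hsa-miR-378a-5p, the opposite arm, read 159, 182 and 215 units at F91, 222, 237 and 303 units at F140, 324, 282 and 321 units at P5, and 186, 293 and 292 units at P173. The P5 arrays lay above the F91 arrays without overlap and overlapped those of the other ages. The log2 change between P5 and F91 was 0.75 ± 0.31 (SE, limma adjusted p = 0.29) and did not pass the test.

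bta-miR-378c, named for an entry that differs from bta-miR-378 by G21U and by length, read 916, 1390 and 996 units at F91, 1053, 1645 and 1507 units at F140, 1596, 1450 and 1653 units at P5, and 1597, 1462 and 1343 units at P173. Its lowest values were on F91 replicates 1 and 3 and F140 replicate 1. mml-miR-378d, the brighter of the unaltered miR-378d probes, read 914, 1269 and 1105 units at F91, 1211, 1566 and 1434 units at F140, 1679, 1707 and 1519 units at P5, and 1302, 1231 and 1553 units at P173. For both probes the P5 arrays lay above the F91 arrays without overlap, with log2 changes of 0.53 ± 0.27 for bta-miR-378c and 0.59 ± 0.25 for mml-miR-378d (SE), which did not pass the test (limma adjusted p = 0.40 and 0.29).

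**Figure D1:**
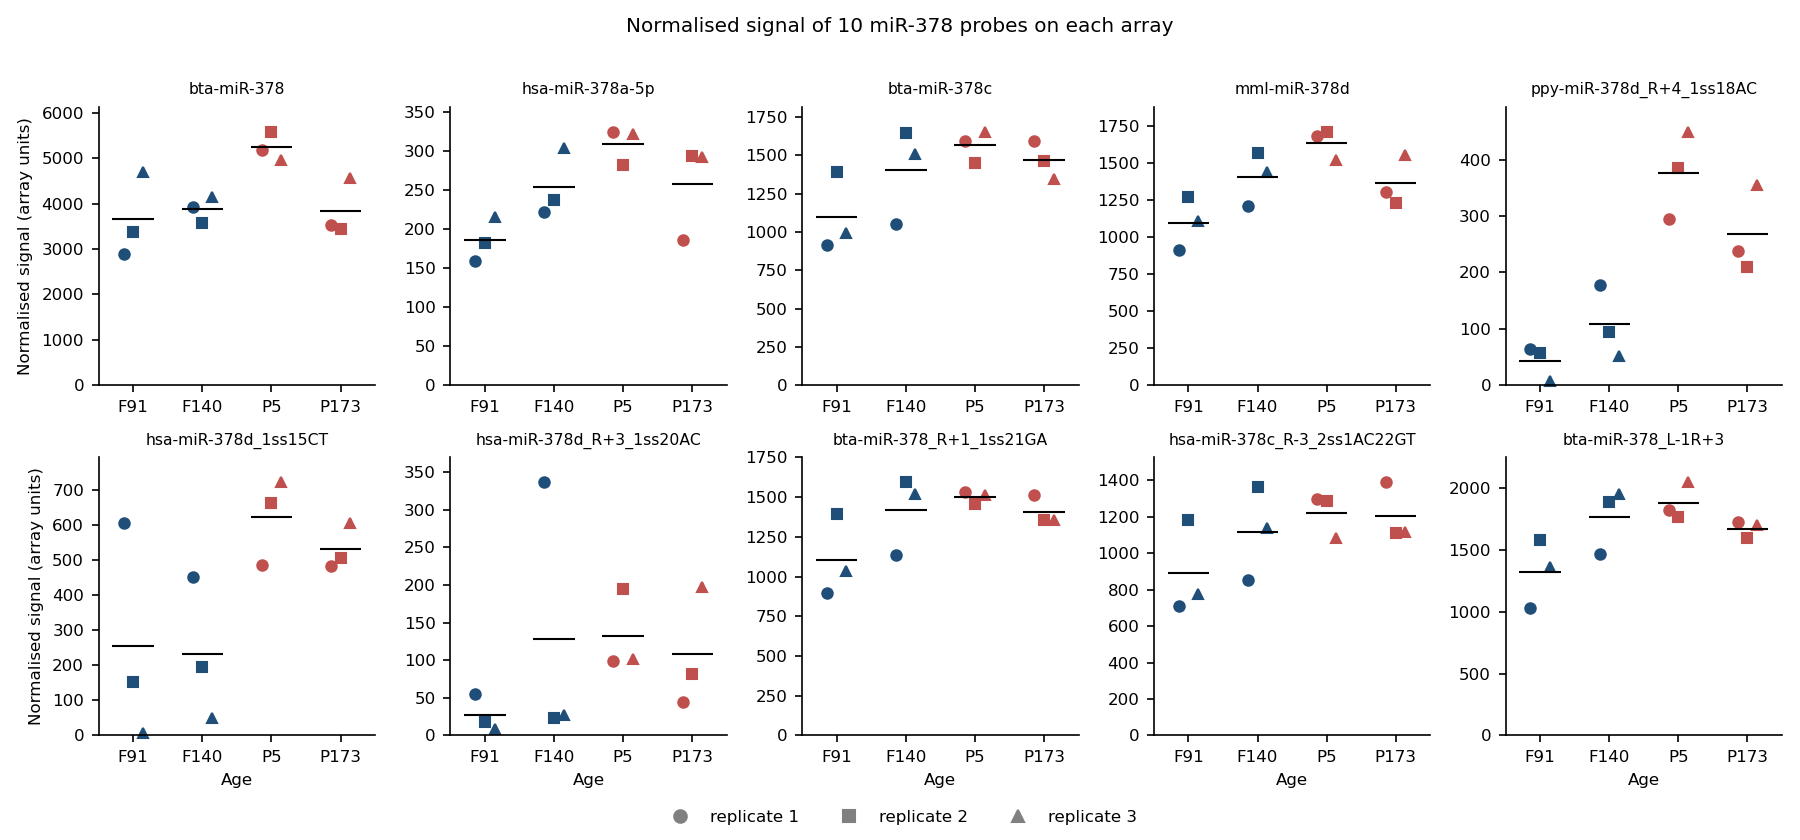
Normalised signal in array units (vertical axes, each from 0) of the 10 probes given on every array, at the 4 ages (horizontal axes), with 1 point per array, marker shape for the replicate number and a bar for the mean of 3 arrays. In bta-miR-378 all P5 points lie above those of the other ages, while in hsa-miR-378d_1ss15CT the F91 points are spread from 7 to 605 units.

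All 94 probes had a higher fitted mean at P5 than at F91. This held in the other settings tried that kept all probes, with 1 exception, hsa-miR-378f_R+1_1ss16AT, one of the probes under 32 units, whose log2 change was -0.067 when scanner intensities were normalised anew. The fitted log2 changes ran from 0.46 to 4.45 with a median of 0.88 (1.84-fold), beside a median of 0.14 over all 3091 probes and of 0.18 over the 775 probes averaging 100 units or more. The value of 4.45 belonged to hsa-miR-378g_R+3, which was under background at F91, so that it is no bound, and the highest among the 87 brighter probes was 3.59. That probe, ppy-miR-378d_R+4_1ss18AC, read under 32 units on F91 replicate 3, so the size of its change depends on the pseudocount. With a pseudocount of 32, the highest change of any of the 94 probes was 2.53. P5 lay above F91 on every array in 69 of 94 miR-378 probes (73.4%), against 10.4% of all probes tested, and in 67 of the 87 brighter ones, against 23.7% of all probes of that brightness. Before normalisation the F91 arrays were dimmer than those of P5. Median scanner signals of the family were 570, 429 and 215 units at F91 and 1485, 1140 and 1470 units at P5. The 90th percentile over all probes was 821, 555 and 329 units at F91 and 1480, 1126 and 1347 units at P5. The part of this difference in the fitted changes was not tested.

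The test between P5 and F91 passed 7 of the 94 probes, all higher at P5 (7.45%), where 0.776% of all probes tested passed in that direction. All 7 were among the 87 miR-378 probes averaging 100 units or more. Of all 775 probes of that brightness, 23 passed in that direction, so the contrast is smaller at matched brightness. At an unadjusted p under 0.05 there were 71 of 94, all higher at P5, against 9.19% of all probes in that direction. Of the 7, 5 are named for miR-378d, 1 for miR-378b and 1 for miR-378i, and 6 had a substitution within bases 1 to 19.

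ppy-miR-378d_R+4_1ss18AC read 294, 385 and 449 units at P5 and 64, 56 and 8 units at F91. It had the largest change among the brighter probes, and differed by 3.59 ± 0.68 on the log2 scale (SE, limma adjusted p = 0.010). Its F91 value of 8 units, under background, was on replicate 3, and its F140 values of 177, 94 and 52 units lay below those of P5. On F91 replicate 1 the coefficient of variation between its 3 spots was 67.6%. Without P5 replicate 2 or P5 replicate 3 the change of 3.56 or 3.45 just missed the threshold (limma adjusted p = 0.053 in both cases), and without F91 replicate 3 it was 2.63 (limma adjusted p = 0.012).

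bta-miR-378b_R+5_1ss4TG, which holds the whole bta-miR-378 sequence and 5 further bases, read 2634, 2838 and 2459 units at P5 and 447, 611 and 300 units at F91, a log2 change of 2.60 ± 0.49 (SE, limma adjusted p = 0.010). At F140 it read 2669, 849 and 486 units, so that F140 replicate 1 lay within the P5 range and the other fetal arrays far below it. Its step was larger than that of bta-miR-378 itself, although the difference between the probes was not tested.

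The other 5 probes that passed differed by 1.14 to 1.41 on the log2 scale. mml-miR-378d_R-1_1ss8TC, substituted within the seed, read 890, 995 and 915 units at P5 and 365, 449 and 261 units at F91 (log2 change 1.41 ± 0.31, SE, limma adjusted p = 0.027). ppy-miR-378d_R+4_1ss8TC, with a substitution at the same base of its name, averaged 880 ± 96.3 units at P5 and 369 ± 97.5 units at F91 (SD, n = 3 each) and changed by 1.28 ± 0.31 on the log2 scale (SE). Targets this alike may have bound the same RNA.

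hsa-miR-378i_3ss9AT18AC21GA, with A18C and G21A relative to bta-miR-378, read 1365, 1271 and 1386 units at P5 and 571, 831 and 362 units at F91. mml-miR-378d_L-1R-1_1ss19AT read 565, 657 and 650 units at P5 and 307, 322 and 201 units at F91. mmu-miR-378d_2ss5GT22TA read 1307, 1541 and 1367 units at P5 and 529, 814 and 596 units at F91. In none of these did the arrays of P5 and F91 overlap, and the limma adjusted p of these 3 and of ppy-miR-378d_R+4_1ss8TC lay between 0.040 and 0.043, just inside the threshold of 0.05.

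The count of 7 depended on single arrays. It was 0 without P5 replicate 2, 1 without either of the other P5 arrays, 2 without F91 replicate 3, 3 or 4 without F140 replicate 2 or 3 or P173 replicate 1 or 3, and 25 without F91 replicate 1. It was 1 with P5 replicates 1 and 2, the possible litter mates, averaged as 1 sample. Over all 3091 probes, calls in either direction numbered 85 with all arrays, 43 without P5 replicate 2, 145 without F91 replicate 1 and 41 with the P5 arrays averaged. Over 25 other settings, bta-miR-378b_R+5_1ss4TG and ppy-miR-378d_R+4_1ss18AC passed in 20 each and the other 5 probes in 6 to 15. The count was 19 when dim probes were left out, where 142 of 1122 probes passed, and 0 when the variance was fitted without a trend on the level, where 21 of 3091 passed.

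**Figure D2:**
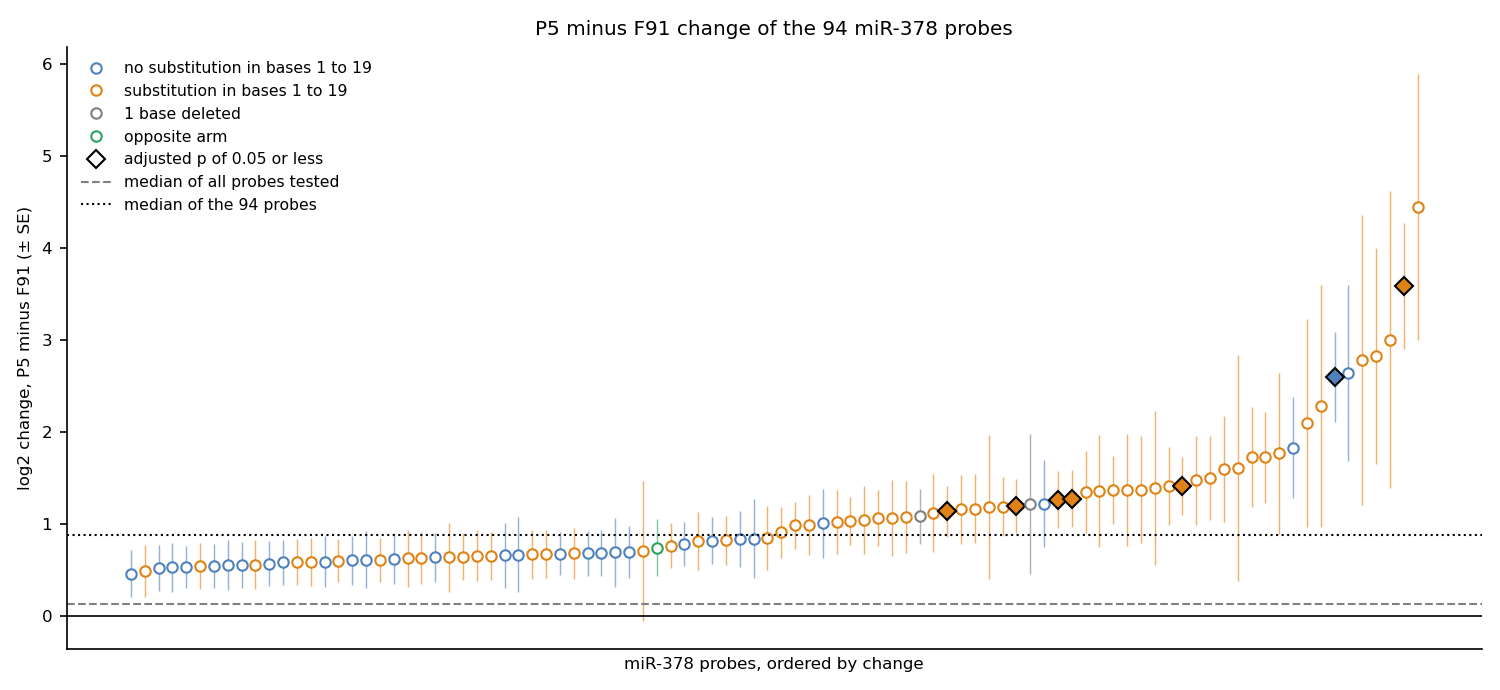
Fitted log2 change of P5 minus F91 (vertical axis) with its SE for the 94 miR-378 probes, ordered by size along the horizontal axis and coloured by how the target differs from bta-miR-378; diamonds mark an adjusted p of 0.05 or less. All points lie above 0, from 0.46 to 4.45, above the median of all probes tested at 0.14.

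The smallest changes among probes reaching 100 units belonged to targets close to bta-miR-378. bta-miR-378_R+1_1ss21GA, with G21A and 1 added base, read 1533, 1455 and 1514 units at P5 and 894, 1394 and 1035 units at F91, a log2 change of 0.46 ± 0.26 (SE, limma adjusted p = 0.46). hsa-miR-378c_R-3_2ss1AC22GT read 1298, 1286 and 1082 units at P5 and 709, 1179 and 776 units at F91 and overlapped between these ages (0.49 ± 0.29, limma adjusted p = 0.47). The overlap came from P5 replicate 3 alone, where scanner signals of its 3 spots ran from 198 to 1828 units. Their coefficient of variation was 77.4%, against 7.5% and 10.2% on P5 replicates 1 and 2. bta-miR-378_L-1R+3 read 1827, 1770 and 2046 units at P5 and 1030, 1578 and 1366 units at F91 (0.53 ± 0.25, limma adjusted p = 0.36). In all 3, F91 replicate 1 was the lowest array and F91 replicate 2 the highest of that age.

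Some of the largest fitted changes did not pass, and their fetal arrays were far apart. hsa-miR-378d_1ss15CT read 487, 664 and 722 units at P5 and 605, 152 and 7 units at F91, so that F91 replicate 1 overlapped P5 while F91 replicate 3 was under background (log2 change 2.83 ± 1.17, SE, limma adjusted p = 0.29). Without F91 replicate 1 the change was 4.23 and passed (limma adjusted p = 0.028), and without F91 replicate 3 it was 1.02 and did not (limma adjusted p = 0.62). hsa-miR-378d_R+3_1ss20AC read 99, 195 and 102 units at P5, 336, 23 and 27 units at F140, and 55, 18 and 8 units at F91 (2.64 ± 0.96 between P5 and F91, limma adjusted p = 0.20). As 2 of its 3 F91 arrays read under 32 units, the size of this change is uncertain, and it was 1.51 with a pseudocount of 32. bta-miR-378_R+1_1ss12AG, which holds A12G, read 762, 986 and 1039 units at P5, 370, 307 and 291 units at F140, and 821, 255 and 102 units at F91. Here P5 lay above all F140 arrays, and F91 replicate 1 within the P5 range (1.73 ± 0.54 between P5 and F91, SE, limma adjusted p = 0.13).

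Probes with a substitution within bases 1 to 19 had larger fitted changes than those without one. Between P5 and F91, the log2 changes of the 61 substituted probes ran from 0.49 to 4.45 with a median of 1.12, and those of the 30 others from 0.46 to 2.64 with a median of 0.67. The upper ends of both ranges were probes under or near background at F91, hsa-miR-378g_R+3 and hsa-miR-378d_R+3_1ss20AC. Medians were 0.99 for 17 probes substituted at base 1, 18 or 19 only, 1.17 for 15 with a substitution in bases 2 to 8, and 1.16 for 29 with one in bases 9 to 17. Across 93 probes, the change correlated with the longest run of bases shared with bta-miR-378 at a Spearman rho of -0.43, and with GC content at 0.13. The 58 targets with a GC content of 50% or more had a median change of 1.08 and held all 7 that passed, and the 36 others had a median of 0.75. These are descriptions over probes that share targets and arrays, and the difference between the classes was not tested.

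Probes that held the bta-miR-378 seed and those that did not were alike in their medians, at 0.88 for 54 and 0.92 for 40. By name, median changes were 0.79 for 19 probes named miR-378, 0.68 for 32 named miR-378c and 1.09 for 20 named miR-378d. The other letters had 6 probes or fewer, with medians from 0.96 for miR-378b to 2.55 for miR-378g, which had 2 probes of which 1 was dim.

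**Figure D3:**
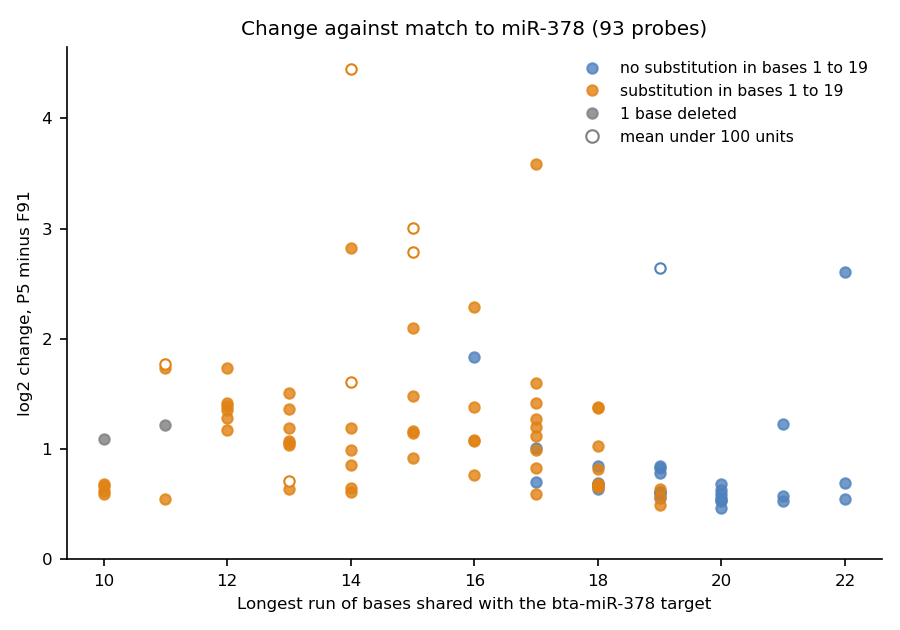
Fitted log2 change of P5 minus F91 (vertical axis) against the longest run of bases that each target shares with bta-miR-378 (horizontal axis, bases) for 93 probes, with open points for means under 100 units. The highest point, at 4.45 and a run of 14 bases, is the dim hsa-miR-378g_R+3, and most probes with runs of 20 bases or more lie below 1.

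The classes also differed in how the arrays of 1 age were spread. At F91, probes without a substitution in bases 1 to 19 read low on replicate 1, with a median log2 deviation of -0.24 from the mean of the age, and 20 of 30 had their lowest F91 value there. Substituted probes read high on the same array, with a median deviation of 0.44, and 52 of 61 had their lowest F91 value on replicate 3, where the median deviation was -0.53. F140 replicate 1 showed the same contrast, at -0.25 for probes without and 0.29 for probes with a substitution. Median deviations of the 688 other probes of similar brightness (means of 100 units or more) lay between -0.084 and 0.072 on the 12 arrays.

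The spots of these probes were uneven on the same arrays. The median coefficient of variation between the 3 spots of a miR-378 probe was 27.0% on F91 replicate 1 and 30.2% on F140 replicate 1, against 5.0% to 12.7% on the other 10 arrays. Its part in the results was not tested. With both arrays left out, a choice made after and because of the values seen there, 38 of the 94 probes passed between P5 and F91, all higher at P5, including 6 of the 7 and 33 substituted probes. Over all 3091 probes, 183 then passed in either direction, against 85 with all arrays. The median log2 change of the family was then 1.29 for substituted probes and 0.50 for the 30 others.

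The family was more even among the 3 P5 lambs, of which 2 may be litter mates, than at the other ages. Over the 94 probes, F91 had a median SD of 0.46 between its log2 values, F140 of 0.36, P5 of 0.13 and P173 of 0.19. The 688 other brighter probes had median SDs of 0.59 at F91, then 0.36, 0.36 and 0.48 in order of age, and these differences in spread were not tested. At P5 substituted probes had a median SD of 0.15 and probes without a substitution of 0.097.

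**Figure D4:**
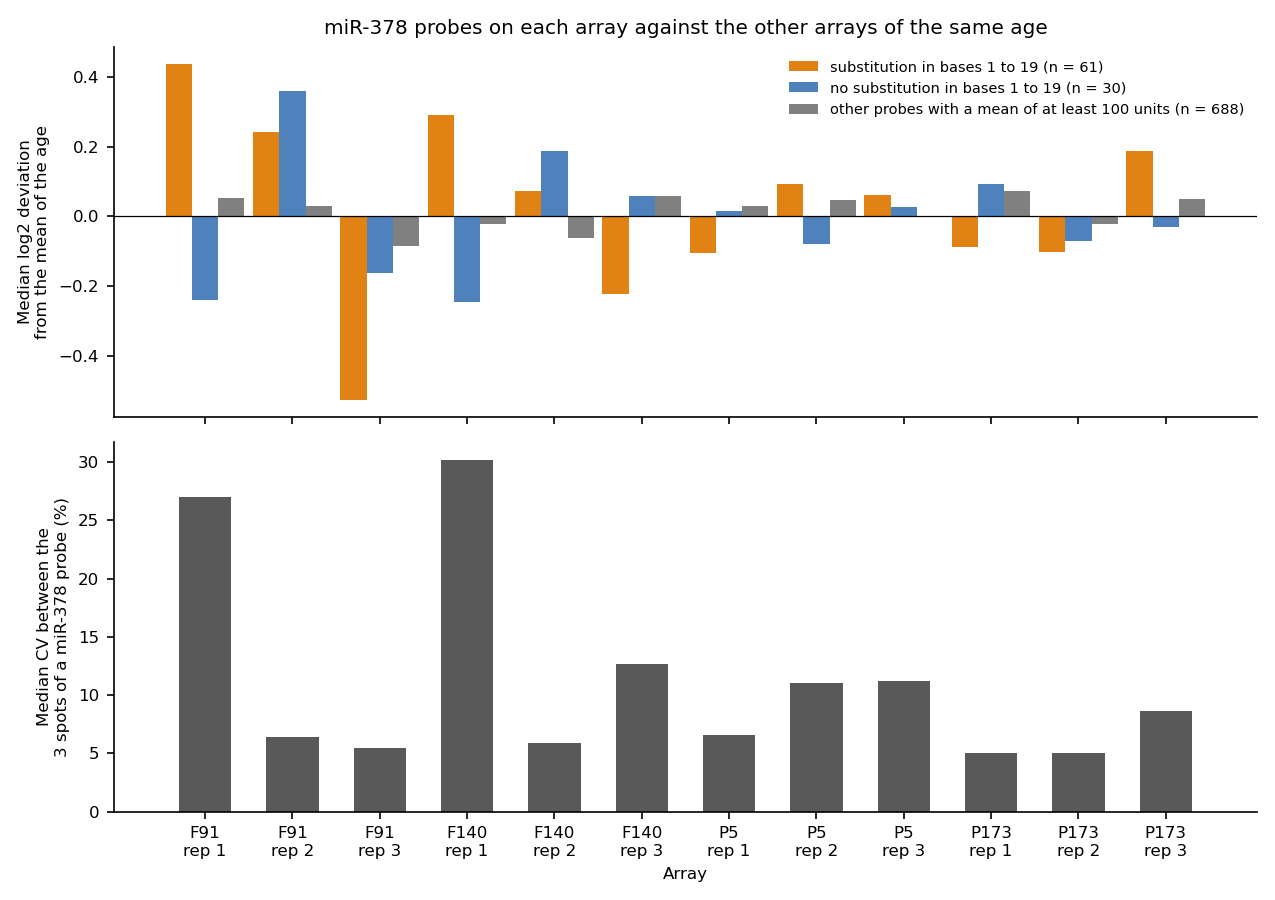
Above, the median log2 deviation of each array from the mean of its age (vertical axis) for miR-378 probes with and without a substitution in bases 1 to 19 and for other probes averaging 100 units or more; below, the median coefficient of variation between the 3 spots of a miR-378 probe in percent, for the 12 arrays. F91 replicate 1 and F140 replicate 1 have deviations of opposite sign in the 2 classes and coefficients of variation of 27.0% and 30.2%.

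Over the 4 ages, the highest mean was at P5 in 92 of 94 probes and at P173 in 2, and the lowest was at F91 in 91 and at F140 in 3. Among all probes tested, 26.6% were highest at P5 and 30.1% lowest at F91. P5 lay above all 9 arrays of the other ages in 17 of 94 probes (18.1%), against 1.65% of all probes. The F-test over the ages passed 4 of 94 (4.26%), against 8.7% of all probes tested, so the share of the family that passed was below that of the array. The 4 were ppy-miR-378d_R+4_1ss18AC, bta-miR-378b_R+5_1ss4TG, mml-miR-378d_R-1_1ss8TC and mml-miR-378d_L-1R-1_1ss19AT. Their limma adjusted p lay between 0.012 and 0.047.

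Between the fetal ages no probe passed the test. F140 exceeded F91 in 91 of 94 fitted means, with a median log2 change of 0.37 beside 0.07 over all probes tested, and F140 lay above F91 on every array in 18 (19.1%), against 11.4% of all probes. Among probes averaging 100 units or more the shares were similar, at 17 of 87 miR-378 probes and 149 of all 775. None of the 94 passed the limma test, where 5.53% of all probes did, and 11 (all higher at F140) had an unadjusted p under 0.05, against 16.9% of all probes. Over the other settings, 71 to 93 probes had the higher mean at F140. The median was 0.22 without F91 replicate 3, where that of all probes was -0.011, and 0.55 without F91 replicate 2.

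Around birth, P5 exceeded F140 in 93 of 94 fitted means, with a median of 0.48 beside 0.00 over all probes, and lay above F140 on every array in 39 (41.5%), against 9.16% of all probes. Among probes averaging 100 units or more, it lay above in 39 of 87 miR-378 probes and in 151 of all 775. None passed the limma test, where 1.81% of all probes did, and 17 (all higher at P5) had an unadjusted p under 0.05, against 13.6% of all probes. Over the other settings, 88 to 94 probes had the higher mean at P5. Probes without a substitution had a median of 0.29 and substituted probes of 0.63. With the arrays numbered 1 of F91 and F140 both left out, 8 passed, with 100 of all 3091 probes. Without F91 replicate 1, F91 replicate 3 or F140 replicate 1 alone, 4, 2 and 1 passed. Counts over all probes are not given for these single arrays, so a shift of the family is not told from one of the whole array.

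After birth, P173 was lower than P5 in 92 of 94 fitted means. The median log2 change was -0.23, beside -0.16 over all probes tested, a difference of medians smaller than in the comparisons with F91 or F140. P5 lay above P173 on every array in 21 probes (22.3%), against 9.96% of all probes. Among probes averaging 100 units or more, it lay above in 21 of 87 miR-378 probes and in 121 of all 775. None passed the limma test or had an unadjusted p under 0.05, while 1.59% of all probes tested passed and 10.9% had an unadjusted p under 0.05. When scanner intensities were normalised anew, 23 probes were higher at P173 and the median was -0.11.

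P173 was above F91 in all 94 fitted means, except that bta-miR-378 was lower without F91 replicate 1 or P173 replicate 3 and hsa-miR-378f_R+1_1ss16AT when scanner intensities were normalised anew, at -0.023. The median log2 change was 0.68, and 0.44 without F91 replicate 3, beside 0.01 over all probes, and P173 lay above F91 on every array in 43 probes (45.7%), against 9.67% of all probes. The contrast was smaller among probes averaging 100 units or more. There the median was 0.61 for 87 miR-378 probes and 0.24 for all 775. P173 lay above F91 on every array in 42 and 158 of them, and 2 and 70 passed the test as higher at P173. The test passed 2 of 94, both higher at P173 (2.13%), a share below the 3.24% of all probes that passed in that direction. ppy-miR-378d_R+4_1ss18AC read 238, 210 and 355 units at P173 (log2 change 3.08 ± 0.68, SE, limma adjusted p = 0.012), and bta-miR-378b_R+5_1ss4TG read 1611, 2129 and 2635 units (2.26 ± 0.49, limma adjusted p = 0.010). Without F91 replicate 1, 18 passed, and without F91 replicate 2, 5 passed, where 280 and 166 of all 3091 probes did in either direction, against 209 with all arrays.

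**Figure D5:**
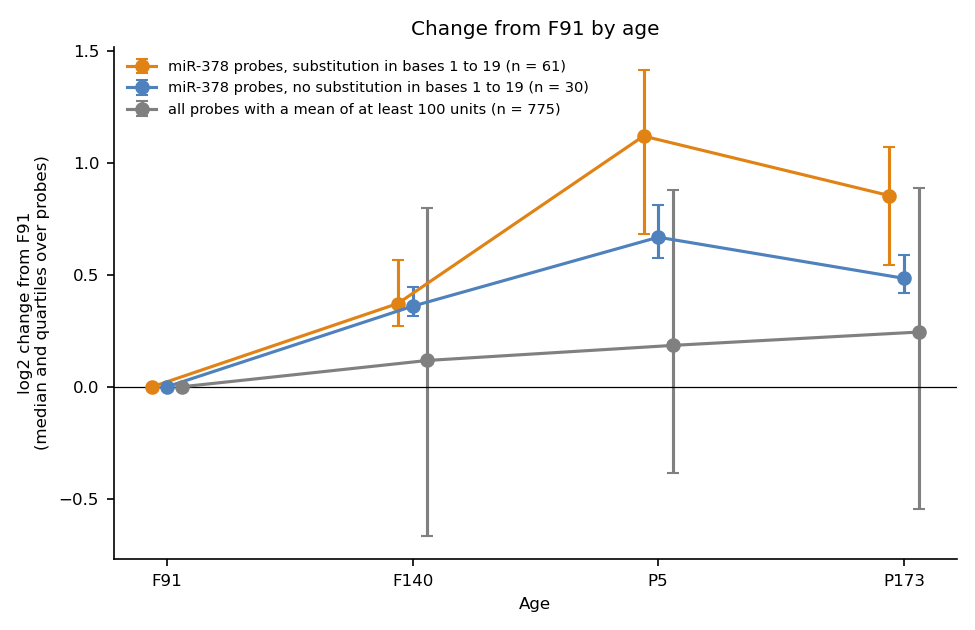
Median log2 change from the F91 mean (vertical axis) at the 4 ages (horizontal axis), with bars from the lower to the upper quartile over probes, for miR-378 probes with and without a substitution in bases 1 to 19 and for all probes averaging 100 units or more. Both classes of miR-378 probes peak at P5, at 1.12 and 0.67, where the median of all such probes is 0.18.

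Other probes bearing on miR-378 gave the following values. Of 21 probes named for predicted arms of miR-378 precursors, 19 reached 32 units on at least 1 array, 20 had a higher fitted mean at P5 than at F91 with a median log2 change of 0.93, and none passed the limma test between these ages. Between P5 and F140, where 1.81% of all probes passed, hsa-mir-378f-p5_2ss16AC17GT was called higher at P5 (log2 change 4.70, limma adjusted p = 0.027). Its means were 103 units at P5 and 5.0 units at F140, so the size of its change depends on the pseudocount. A further 3 anonymous probes held the bta-miR-378 seed at bases 2 to 8. They read 413 units or less and none passed between P5 and F91 or between P173 and F91.

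The log2 values of the other 93 probes correlated with those of bta-miR-378 over the 12 arrays at a median Pearson r of 0.29, from -0.16 to 0.87, beside a median of -0.028 over the 688 other brighter probes. These are descriptions over arrays that the probes share. Among 291 other named miRNA of that brightness, taking 1 probe for each name, the 5 most like bta-miR-378 over the 12 arrays were mir-7641-2-p3 (r = 0.83), miR-1835 (r = 0.83), miR-5126 (r = 0.74), miR-2137 (r = 0.71) and miR-2887 (r = 0.71). miR-1835 averaged 634 ± 83.7 units at P5 and 152 ± 104 units at F91 (SD, n = 3 each), and none of the 5 passed between P5 and F91 (limma adjusted p from 0.058 to 0.52).

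Muscle miRNA were set beside the family. Of 8 muscle miRNA (miR-1, miR-133a, miR-133b, miR-206, miR-208a, miR-208b, miR-499 and miR-486), 2 were called higher at P5 than at F91, miR-1 and miR-486, and 4 higher at P173 than at F91, with none lower. miR-486, called in both comparisons, is also counted among red blood cell miRNA, so its calls are not particular to muscle. Summed over the 5 taken as markers of muscle (miR-1, miR-133a, miR-208a, miR-208b and miR-499), F91 arrays read between 10094 and 12681 units, F140 arrays between 31392 and 40826, P5 arrays between 17764 and 27044, and P173 arrays between 24504 and 33668. The F140 arrays lay above those of P5 and overlapped those of P173, while at F140 0 of the 94 miR-378 probes had their highest mean. The sum does not hold for each miRNA. From F140 to P5, means fell from 16175 to 7513 units for miR-1, 8634 to 2134 for miR-499 and 907 to 14 for miR-208b. They rose from 10205 to 14228 units for miR-133a, 10046 to 13817 for miR-133b and 1371 to 1975 for miR-486. Of these changes only that of miR-208b was called. Sequence variants stood for miR-133a (ppy-miR-133a_L+4_1ss6TG), miR-206 (bta-miR-206_R-5_1ss17GT) and miR-208b (bta-miR-208b_L-1R-3). The other muscle miRNA were read from unaltered probes. miR-208a, which lies in an intron of a cardiac myosin gene, and miR-206, a skeletal muscle miRNA, were under 32 units on all arrays.

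Values of miRNA that mark other cells were also compared between P5 and F91. The sum of red blood cell miRNA (miR-451 and miR-144) was 1207 to 3129 units at P5 and 146 to 1474 units at F91, with neither called. miR-486, given above with the muscle miRNA, was not part of this sum. Of 4 fibroblast miRNA, miR-214 was called lower at P5, with a mean of 2012 units at P5 and 7475 units at F91. The other 3 were not called, and their means were 250 units at P5 and 126 units at F91 for miR-21, 1019 and 1206 units for miR-199a-3p, and 167 and 315 units for miR-199a-5p. The sum of 5 white blood cell miRNA was 247 to 290 units at P5 and 225 to 331 units at F91, that of miR-126, an endothelial miRNA, 2197 to 4476 units at P5 and 923 to 4211 units at F91, and that of 2 smooth muscle miRNA 4535 to 6533 units at P5 and 4718 to 7358 units at F91, with none called between these ages. miR-122, which marks liver, read 17 to 66 units at P5 and 4 to 11 units at F91. The part of these cells in the miR-378 values was not tested.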

How the data were processed

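Left ventricular RNA from 12 sheep was hybridised to a custom single-colour array of 3098 probes, made and scanned by a service provider. The authors deposited the scanner's intensity of each spot, without background correction, and a table of whole numbers used here, 1 score for each probe, in which spots had been combined, background removed and arrays put on 1 scale by lowess. That table holds 3146 probes, and leaving out 55 controls left 3091. A second deposited table holds intensity values with decimals, which match the whole numbers for the 3141 probes that both tables hold.

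The rule took every probe named miR-378 with at most 1 letter and 1 arm suffix. Probes given on every array were bta-miR-378 and the brightest unaltered probe of each other letter or arm, so the unaltered hsa-miR-378d was left out. To these were added the 3 largest and 3 smallest changes between P5 and F91 among those that averaged 100 units or more at P5 or at F91. Probes that passed a test were named after their values were seen. Members, lists and tests were chosen with earlier results of these data known. Targets were compared with the bta-miR-378 target without gaps, or with 1 gap.

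Values were fitted as log2(value + 0.1) with limma 3.58.1 (R 4.3.3), using lmFit and eBayes with the variance trend, over the 12 arrays, and p-values were adjusted by Benjamini-Hochberg over 3091 probes, called at 0.05 or less. Fold changes are on the log2(value + 0.1) scale and depend on the pseudocount where values are low. An age with all 3 arrays under 32 units was taken as not above background. On data simulated for P5 against F91 over 3091 probes, 26%, 72%, 84% and 94% of log2 changes of 1, 2, 3 and 4 were recovered, with 9 false calls. The number of arrays, 3 for each age, limits the precision, as do uneven spots and background, and there is no depth of reads. Python 3.11.15, numpy 2.4.6, pandas 2.3.3, scipy 1.17.1 and matplotlib 3.10.9 were used. The labels say that the samples of an age were biological replicates.

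Arrays of F91 and F140 share replicate numbers, and their same-numbered arrays deviated together (correlations of 0.14 to 0.28 over 3091 probes in 3 of 3 pairs), a pairing that comes from the data and not from the labels. Over all 18 same-numbered pairs, 4 were over 0.1. Alternatives were other pseudocounts, tables, filters, normalisation, a GC trend, a replicate block, 2 ages alone, P5 replicates 1 and 2 averaged and each array left out.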

Additional observations from a re-analysis of the deposited data

How the results depend on the processing

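Of 500 repeats of 20 changes of probes given on every array (P5 or P173 against F91), 483 kept their direction and side of the threshold, 8 lost and 6 gained a call, and 3 turned round, all of bta-miR-378 for P173 against F91, at -0.067 without F91 replicate 1, alone or with F140 replicate 1 left out as well, and -0.043 without P173 replicate 3, the range without single arrays being -0.067 to 0.28. Counts of probes passing were less stable, and the cause was not tested unless the setting itself removed probes or arrays. No counts over all probes stand beside them in this section, so they do not tell a shift of the family from one of the whole array. Past the F-test there were 4, but 2 with a pseudocount of 1 or 32, with the replicate block over 12 arrays or with P5 replicates 1 and 2 averaged, 11 with dim probes left out, 0 without the variance trend and 27 with both arrays numbered 1 left out. For P5 against F91 there were 7, but 3 with a pseudocount of 32, 4 from scanner intensities, 19 with dim probes left out, 0 without the variance trend, 1 with the 2 ages alone or with the P5 arrays averaged, and 38 with both arrays numbered 1 left out. With the replicate block the count was 3 over 12 arrays, 0 with the 2 ages alone and 3 with the GC trend also taken out; these ages share only a number, and the pairing is no part of the design. For P173 against F91 there were 2, but 11 with dim probes left out, 0 without the variance trend, 1 with the 2 ages alone, 0 with these and the replicate block, and 27 with both arrays numbered 1 left out. For F140 against F91 the count was 0, but 1 with dim probes left out and 2 with the GC trend taken out, and the replicate block changed no call. For P5 against F140 it was 0, but 1 with a pseudocount of 32 or with the 2 ages alone and 8 with both arrays numbered 1 left out. Leaving out 1 array at a time gave 2 to 18 for the F-test, 0 to 25 for P5 against F91, 2 to 18 for P173 against F91, 0 to 1 for F140 against F91, 0 to 4 for P5 against F140 and 0 in each case for P173 against P5. Signals near 32 units are limited by background, and arrays in arbitrary units give no molecule numbers. With the replicate numbers as pairs, an array correlated best with its own number in 11 of 36 comparisons between ages.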
